A study of Mus musculus with 4 samples.

Results

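The miR-322 to miR-450 cluster is a group of hairpins on the mouse X chromosome, and 8 of its mature miRNAs were followed here by name: mmu-miR-322-5p, mmu-miR-322-3p, mmu-miR-503-5p, mmu-miR-351-5p, mmu-miR-542-5p, mmu-miR-542-3p, mmu-miR-450a-5p and mmu-miR-450b-5p. They are 8 of the 1907 mature miRNAs listed, and all 8 had reads in all 4 libraries. Small RNA-seq was performed on E14Tg2A, a mouse ES cell line of strain 129/Ola, and on the epiblast-like aggregates (ELA) made from it. ES cells at day 0 were grown either in 10% fetal calf serum with LIF at 1000 U/mL (ES serum) or in 2iL (ES 2iL). The 2iL medium is serum-free and holds LIF at 1000 U/mL, the MEK inhibitor PD0325901 at 1 µM and the GSK3 inhibitor CHIR99021 at 3 µM. ELA serum and ELA 2iL were obtained from ES cells of the respective medium by 2 days of floating culture in a chemically defined minimal medium for which no serum, LIF or inhibitor is listed. All 4 groups come from 1 cell line, each group is 1 library made from the pooled RNA of 3 experiment sets, and no value below has an error between experiments.

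A miRNA hairpin is cut into a 5p and a 3p strand, of which usually one is kept in the silencing complex and finds its target mRNAs through its seed, bases 2 to 8. miR-322, the mouse counterpart of human miR-424, belongs to the extended miR-15/16 family together with miR-503, and the family is known for holding back cell-cycle regulators such as cyclin D1 and Cdc25a. mmu-miR-351-5p carries the seed of the miR-125 family, known from work on haematopoietic and neural cells. The neighbouring hairpins of miR-542 and miR-450 are generally treated as part of the same locus. What the members share is their location, not their seed.

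The mature sequences, taken from RefSeq (GRCm38.p6), are shown because the seed decides which members can be counted together. Capitals mark the seed.
mmu-miR-322-5p: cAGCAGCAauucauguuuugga
mmu-miR-503-5p: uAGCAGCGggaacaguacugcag
mmu-miR-16-5p: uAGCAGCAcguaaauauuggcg
mmu-miR-351-5p: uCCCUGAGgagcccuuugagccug
mmu-miR-125a-5p: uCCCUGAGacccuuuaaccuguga
mmu-miR-542-3p: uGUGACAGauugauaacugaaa
mmu-miR-450a-5p: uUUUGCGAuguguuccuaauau
mmu-miR-450b-5p: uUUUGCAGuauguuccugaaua
All 8 members matched a RefSeq entry. The seed of mmu-miR-322-5p is that of mmu-miR-16-5p, of which mmu-miR-503-5p shares 6 of 7 bases. The seed of mmu-miR-351-5p is that of mmu-miR-125a-5p. Their sequences agree over the first 8 bases and part directly after the seed, with 10 of 24 positions identical. mmu-miR-450a-5p and mmu-miR-450b-5p agree at 15 of 22 positions, including the first 6, but at 5 of 7 seed positions. The remaining pair of members are the strands usually found less often in their hairpins, mmu-miR-322-3p and mmu-miR-542-5p.

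The hairpins of miR-322 and miR-542 are the only ones of which both strands are members. They are shown with the 5p strand and then the 3p strand in capitals.
Mir322: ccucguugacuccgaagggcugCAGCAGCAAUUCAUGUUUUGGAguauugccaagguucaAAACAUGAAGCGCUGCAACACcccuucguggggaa
Mir542: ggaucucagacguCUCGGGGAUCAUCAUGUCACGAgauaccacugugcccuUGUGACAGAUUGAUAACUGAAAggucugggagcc
On mm9, the build to which the authors mapped, Mir322 lies at chrX:50407432-50407526 and Mir542 at chrX:50402580-50402664, both on the minus strand. The 7 hairpins together span 6353 bases, chrX:50401174-50407526, and no other gene of GENCODE vM1 overlaps any of them, so they are intergenic in that annotation. In the direction of transcription Mir322, Mir503 and Mir351 come first, within 1095 bases. After a gap of 3767 bases follow Mir542, Mir450-2, Mir450-1 and Mir450b, within 1491 bases. The lincRNA gene C430049B03Rik (chrX:50408223-50410367) lies beyond a gap of 696 bases on the upstream side of Mir322. In the text, upstream members are those of Mir322, Mir503 and Mir351, and downstream members those of Mir542 and the Mir450 hairpins. mmu-miR-450a-5p can come from either Mir450-1 or Mir450-2, which encode the same mature sequence. How reads were divided between them is not given in the sources used here, so its level is that of both hairpins and its count is uncertain.

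The libraries held 587363 (ELA 2iL) to 8056984 (ES serum) miRNA reads, so the same RPM rests on 13.72 times fewer reads in ELA 2iL than in ES serum. RPM (reads scaled to a library total of 1000000) is a share of all miRNA reads and not an amount per cell. In pooled bulk RNA, fewer cells with a miRNA and less of it per cell cannot be told apart. Markers of the labelled cells were present. The summed level of 6 naive markers of the miR-290 cluster was 69693 RPM for ES serum and 155736 for ES 2iL, against 45131 for ELA serum and 119059 for ELA 2iL, with 2 of the 6 listed at 0 in all libraries (the miR-290a and miR-292a strands). The summed level of 5 primed markers (miR-302a to d and miR-367) was 5384, 69.8, 34066 and 5751 RPM in that order. Muscle markers summed to 11.5 RPM for ES serum and 0 for ES 2iL, against 48.5 for ELA serum and 73.2 for ELA 2iL. Only 2 of the 4 blood markers were listed under the names looked for, and these summed to at most 8.51 RPM. mmu-miR-142a-5p, which is not in that sum, averaged at least 5 on log2(RPM + 1), which is 31 RPM. The neural pair stood between 262 and 424 RPM, and the liver marker mmu-miR-122-5p was at 0 throughout.

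Taken as a sum, the cluster was 2.94-fold higher in ES 2iL than in ES serum and 2.40-fold higher in ELA 2iL than in ELA serum, while ELA and ES from the same medium were close. The 8 members added up to 2008 RPM for ES serum and 5896 for ES 2iL, against 2131 for ELA serum and 5106 for ELA 2iL. These levels are 0.201% (Wilson 95% interval 0.198 to 0.204), 0.590% (0.581 to 0.599), 0.213% (0.209 to 0.217) and 0.511% (0.493 to 0.529) of all miRNA reads in the same order. The exact 95% interval of the 2iL over serum ratio was 2.87 to 3.00 in ES and 2.30 to 2.50 in ELA. ELA over ES was 1.06-fold (1.03 to 1.09) in serum and 0.866-fold (0.833 to 0.900) in 2iL. All such intervals cover counting error only, and reads are not independent molecules. Most of its reads came from mmu-miR-351-5p and mmu-miR-450b-5p.

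**Figure D1:**
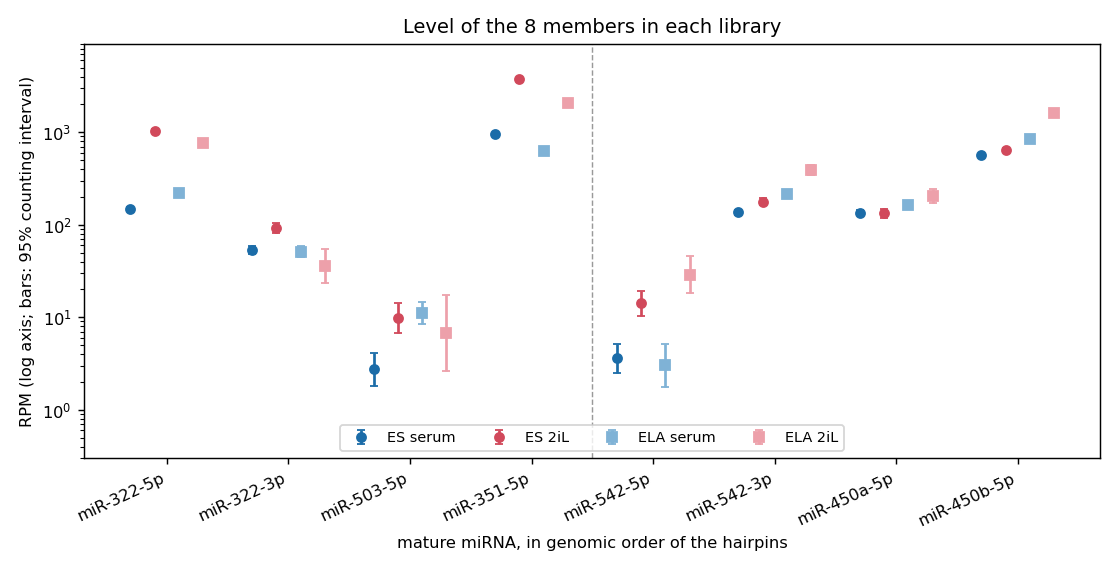
RPM (log axis) of the 8 members in each of the 4 libraries, with Wilson 95% counting intervals as bars. The dashed line parts upstream from downstream members. For mmu-miR-322-5p and mmu-miR-351-5p both 2iL libraries lie above both serum libraries, and for mmu-miR-542-3p, mmu-miR-450a-5p and mmu-miR-450b-5p both ELA libraries lie above both ES libraries.

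Of the upstream members, mmu-miR-351-5p, which carries the miR-125 seed, had the highest level. It measured 965 RPM for ES serum (7774 reads) and 3792 for ES 2iL (10493 reads), against 620 for ELA serum (2670 reads) and 2070 for ELA 2iL (1216 reads), which placed it between rank 42 and rank 92 of the miRNAs in each library. Both 2iL libraries stood above both serum libraries, and within each medium ELA stood below ES. The 2iL over serum ratio was 3.93-fold (exact 95% interval 3.82 to 4.05) in ES and 3.34-fold (3.12 to 3.58) in ELA. ES over ELA was 1.56-fold (1.49 to 1.63) in serum and 1.83-fold (1.73 to 1.95) in 2iL. All neighbours in the order of the 4 libraries differed beyond counting error.

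mmu-miR-322-5p, the strand with the miR-15/16 seed, measured 148 RPM for ES serum (1195 reads) and 1040 for ES 2iL (2877 reads), against 222 for ELA serum (958 reads) and 763 for ELA 2iL (448 reads). The 2iL libraries again stood above both serum libraries, and the ES–ELA step narrowed the gap from both sides. The 2iL over serum ratio was 7.01-fold (6.55 to 7.51) in ES and 3.43-fold (3.06 to 3.84) in ELA. ELA over ES was 1.50-fold (1.38 to 1.63) in serum, whereas in 2iL ES over ELA was 1.36-fold (1.23 to 1.51). mmu-miR-322-5p was the only one of the 8 members with opposite stage differences in the 2 media, each beyond its counting interval. With 1 library per group the difference between these differences was not tested.

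The other strand of the same hairpin, mmu-miR-322-3p, followed another order. Its level was 53.0 RPM for ES serum and 92.2 for ES 2iL, against 51.3 for ELA serum and 35.8 for ELA 2iL, the last from 21 reads. ES 2iL was highest, and the other 3 libraries did not differ from their neighbours beyond counting error. Between ES 2iL and ELA 2iL the ratio was 2.58-fold (1.65 to 4.24).

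mmu-miR-503-5p, the second miRNA with a miR-15/16-type seed, was the least abundant upstream member. It measured 2.73 RPM for ES serum (22 reads) and 9.76 for ES 2iL (27 reads), against 11.1 for ELA serum (48 reads) and 6.81 for ELA 2iL (4 reads). ES serum stood below ES 2iL and ELA serum, which did not differ from each other beyond counting error, and ELA 2iL could not be placed with 4 reads. ELA serum over ES serum was 4.08-fold (2.42 to 7.10), and ES 2iL over ES serum 3.57-fold (1.96 to 6.58).

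Among the downstream members, mmu-miR-450b-5p was the most abundant, with 564 RPM for ES serum (4541 reads) and 638 for ES 2iL (1764 reads), against 846 for ELA serum (3645 reads) and 1605 for ELA 2iL (943 reads). Both ELA libraries stood above both ES libraries, and the media were closer to each other in ES than in ELA. ELA over ES was 1.50-fold (1.44 to 1.57) in serum and 2.52-fold (2.32 to 2.73) in 2iL. The 2iL over serum ratio was 1.13-fold (1.07 to 1.20) in ES and 1.90-fold (1.77 to 2.04) in ELA.

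mmu-miR-542-3p, the main strand of its hairpin, measured 137 RPM for ES serum and 178 for ES 2iL, against 213 for ELA serum and 392 for ELA 2iL, the same order as mmu-miR-450b-5p. ELA over ES was 1.56-fold (1.42 to 1.70) in serum and 2.20-fold (1.87 to 2.58) in 2iL. Over the 4 libraries, the centred log2(RPM + 1) values of mmu-miR-542-3p and mmu-miR-450b-5p lay 0.17 apart (Euclidean distance, a description over 4 libraries), the closest pair of the 6 members averaging at least 5 on that scale. mmu-miR-322-5p and mmu-miR-351-5p, both upstream, lay 1.01 apart, and their distances from the 3 downstream members ran from 2.00 to 2.29. mmu-miR-322-3p did not follow that division, since it lay 2.28 from mmu-miR-322-5p and 1.798 from mmu-miR-351-5p, but 1.41 from mmu-miR-450a-5p, 1.88 from mmu-miR-542-3p and 1.99 from mmu-miR-450b-5p.

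mmu-miR-450a-5p, which comes from either of 2 hairpins, varied least. It measured 135 RPM for ES serum and 132 for ES 2iL, against 165 for ELA serum and 204 for ELA 2iL. The ES libraries did not differ beyond counting error (1.02-fold, 0.905 to 1.15), and both lay below both ELA libraries. ELA over ES was 1.22-fold (1.11 to 1.34) in serum and 1.54-fold (1.25 to 1.90) in 2iL. Reads of mmu-miR-450b-5p outnumbered those of mmu-miR-450a-5p by a factor of 4.18 for ES serum and 4.82 for ES 2iL, against 5.13 for ELA serum and 7.86 for ELA 2iL.

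mmu-miR-542-5p, the minor strand of Mir542, was the downstream member with the largest medium difference. It measured 3.60 RPM for ES serum (29 reads) and 14.1 for ES 2iL (39 reads), against 3.02 for ELA serum (13 reads) and 28.9 for ELA 2iL (17 reads). Both 2iL libraries stood above both serum libraries, by 3.92-fold (2.36 to 6.57) in ES and 9.59-fold (4.39 to 21.5) in ELA. The 2 serum libraries did not differ beyond counting error.

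**Figure D2:**
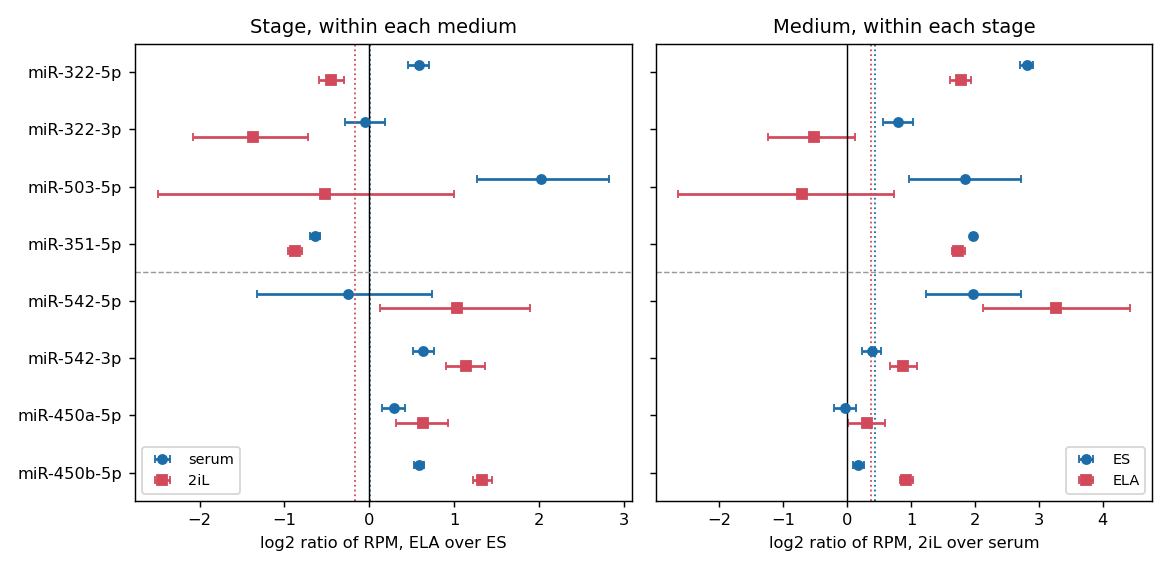
Log2 ratio of RPM for each member, ELA over ES within each medium (left) and 2iL over serum within each stage (right), with exact 95% counting intervals as bars. Dotted lines give the median difference of the expressed miRNAs (296 and 6 members) on log2(RPM + 1). The 4 downstream members lie to the right of 0 for ELA over ES in 2iL, where the 4 upstream members lie to its left. The interval of mmu-miR-503-5p there (4 reads in ELA 2iL) runs from -2.49 to 1.00 and holds 0.

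The stage comparison asked which members differ between ELA and ES cells over both media. Differences were taken on log2(RPM + 1), where changes of low miRNAs come out too small, and tested with limma over all 599 miRNAs with enough reads, with stage and medium as terms. The error of that fit holds any dependence of the stage difference on the medium together with library noise. limma called 0 of the 599 (background 0%), with 125 of them at an unadjusted p under 0.05 and none of these a member. On the recovered reads, edgeR called 39 and DESeq2 50, of which 0 were members. Before adjustment, 127 miRNAs had a p under 0.05 with edgeR and 119 with DESeq2. In each case 2 of these were members, mmu-miR-542-3p and mmu-miR-450b-5p. The largest stage differences were those of mmu-miR-450b-5p, 0.96 ± 0.47 (SE) with an adjusted p of 0.292 by limma, and mmu-miR-542-3p, 0.88 ± 0.45 with an adjusted p of 0.302 by limma. On the other side, mmu-miR-351-5p differed by -0.76 ± 0.44 (limma adjusted p = 0.354) and mmu-miR-322-3p by -0.69 ± 0.53 (limma adjusted p = 0.468). Expressed miRNAs are taken here as those averaging at least 5 on log2(RPM + 1), which is 31 RPM, and comprise 6 members and 296 others. None of these 6 members differed by 1 or more, against 27.8% of all expressed miRNAs. That count is for RPM and changed with the scaling, as the stage difference of mmu-miR-450b-5p came to 1.14 with TMM factors, 1.17 with DESeq2 size factors and 1.05 with totals without the 5 most abundant miRNAs, and that of mmu-miR-542-3p to 1.06 with TMM factors and 1.09 with DESeq2 size factors.

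Sorted by position instead of by test, all 4 downstream members had a positive stage difference, with a median of 0.67. Of the 599 tested miRNAs, 252 had a positive one. The upstream members had 2 positive and 2 negative values, with a median of -0.31. The median of the expressed miRNAs was -0.08. Both ELA libraries were above both ES libraries for mmu-miR-542-3p, mmu-miR-450a-5p and mmu-miR-450b-5p, as for 17.4% of the 599 miRNAs, and below both for mmu-miR-322-3p, as for 24% of them. Within serum, 0 of 6 members with a pair mean of at least 5 were higher in ELA by 1 or more, against a background of 8.33%. Within 2iL, 2 of 6 (mmu-miR-542-3p and mmu-miR-450b-5p) were higher by that much, against 15.3%, and 1 of 6 (mmu-miR-322-3p) was lower by that much, against 25.2%. The division into upstream and downstream members was drawn with these values known, so it describes the libraries and is no test.

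The medium comparison asked which members differ between cells from 2iL and from serum over both stages. limma called 0 of the 599 miRNAs (background 0%), with 176 at an unadjusted p under 0.05. Among those were 3 members, which were also the ones with both 2iL libraries above both serum libraries, as for 30.7% of the 599. mmu-miR-542-5p differed by 2.31 ± 0.51 (SE; limma adjusted p = 0.108), mmu-miR-322-5p by 2.29 ± 0.50 (limma adjusted p = 0.108) and mmu-miR-351-5p by 1.86 ± 0.44 (limma adjusted p = 0.114). Other settings of the test changed these calls. On the recovered reads edgeR called 64 miRNAs, among them mmu-miR-322-5p (adjusted p = 0.0240), and DESeq2 called 80, among them mmu-miR-322-5p (adjusted p = 0.00603) and mmu-miR-351-5p (adjusted p = 0.0330).

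All 8 members had a positive medium difference, as had 364 of the 599 tested miRNAs, and the median of the expressed miRNAs was itself 0.42 higher in 2iL. Relative to that median, mmu-miR-542-5p stood at 1.89, mmu-miR-322-5p at 1.87 and mmu-miR-351-5p at 1.44. The next were mmu-miR-542-3p at 0.21, mmu-miR-450b-5p at 0.13 and mmu-miR-503-5p at 0.03. mmu-miR-322-3p and mmu-miR-450a-5p stood at -0.28 each, and under TMM or DESeq2 size factors their medium difference turned negative, to between -0.23 and -0.28. Of the 6 expressed members, 2 were higher in 2iL by 1 or more, against 23.8% of all expressed miRNAs. Those 2, mmu-miR-322-5p and mmu-miR-351-5p, also passed within ES alone, where the background was 32.9%, and within ELA alone, where it was 20.9%. The naive marker list and the marker list of fibroblasts and mesenchyme both had differences of the same sign as mmu-miR-351-5p. All 4 tested naive markers had positive medium differences (median 0.91) and negative stage differences (median -0.62), and their summed level given above ranks the libraries in the order of mmu-miR-351-5p. For fibroblasts and mesenchyme, as means over the 2 pairs of libraries, the 5 tested markers of 6 had positive medium differences (median 0.80) and negative stage differences (median -0.58), although within ES mmu-miR-199a-5p and mmu-miR-199b-3p had lower values in 2iL, and within 2iL mmu-miR-199a-5p had a higher value in ELA. Summed, that list stood at 3186 RPM for ES serum and 4871 for ES 2iL, against 1487 for ELA serum and 2007 for ELA 2iL, nearly all of it mmu-miR-143-3p, while mmu-miR-214-3p was at 0 in both serum libraries and at 3 reads or fewer in the others. The part of either list in the members' differences was not tested.

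**Figure D3:**
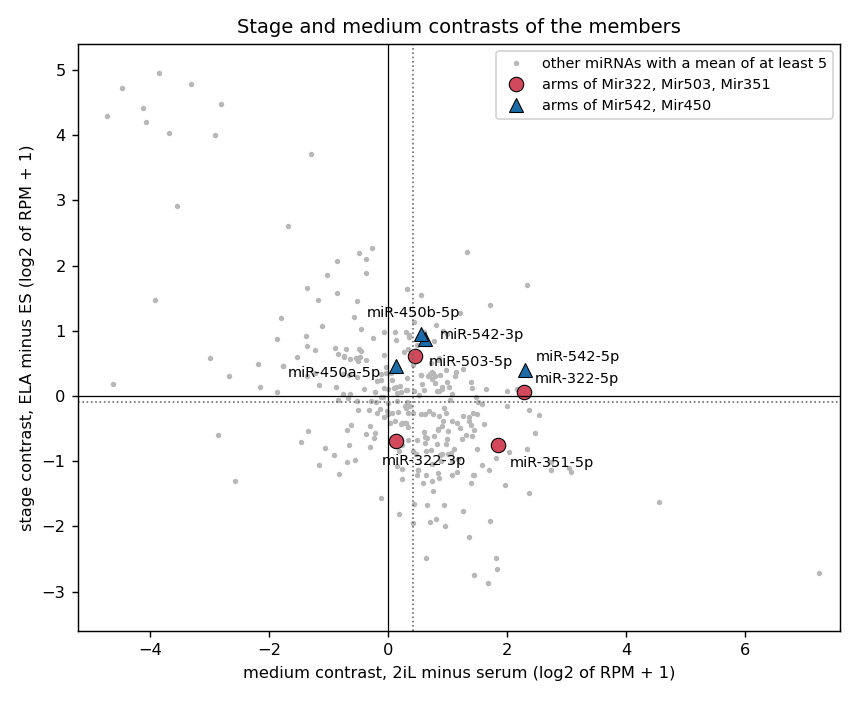
Stage contrast (ELA minus ES) against medium contrast (2iL minus serum), both on log2(RPM + 1), for the 8 members and for the 296 other expressed miRNAs. Dotted lines mark the median contrasts of -0.08 and 0.42, and mmu-miR-322-5p and mmu-miR-542-5p lie farthest right of the members, at 2.29 and 2.31.

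Ratios within a library do not depend on how libraries are scaled to each other. The upstream members gave 58.2% of the reads of the 8 members for ES serum and 83.7% for ES 2iL, against 42.4% for ELA serum and 56.3% for ELA 2iL. Upstream reads thus outnumbered downstream reads by a factor of 1.39 (exact 95% interval 1.35 to 1.44) in ES serum, 5.13 (4.92 to 5.35) in ES 2iL and 1.29 (1.20 to 1.39) in ELA 2iL, and stood at 0.738 (0.707 to 0.769) of them in ELA serum. ES serum and ELA 2iL had nearly the same balance, ES 2iL was shifted to the upstream members and ELA serum to the downstream ones. This order rests on mmu-miR-351-5p, without which the upstream share was 19.6% for ES serum and 54.3% for ES 2iL, against 18.8% for ELA serum and 26.5% for ELA 2iL. ES 2iL still had the highest share then, but ES serum stood beside ELA serum. On the log2 scale, the ratio was 1.34 higher in 2iL than in serum and 1.46 lower in ELA than in ES, each as a mean over 2 pairs of libraries. In RPM, upstream members summed to 1169 and 4934 in ES (serum, then 2iL) and to 904 and 2876 in ELA, and downstream members to 839 and 962 in ES and 1226 and 2230 in ELA.

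**Figure D4:**
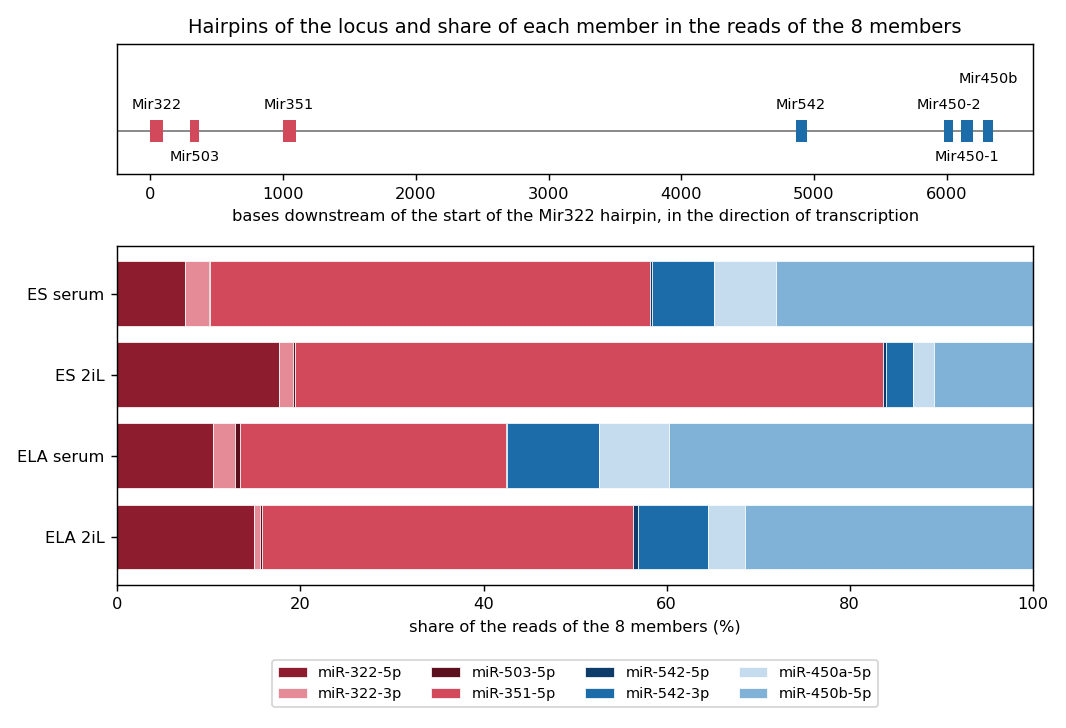
Top, the 7 hairpins by distance in bases from the start of Mir322. Bottom, the share (%) of each member in the reads of the 8 members in each library. Red upstream members take 83.7% in ES 2iL and 42.4% in ELA serum.

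Most of these reads came from a pair of members. mmu-miR-351-5p alone went from 48.1% of the cluster's reads for ES serum to 64.3% for ES 2iL, against 29.1% for ELA serum and 40.5% for ELA 2iL, and mmu-miR-450b-5p from 28.1% to 10.8%, 39.7% and 31.4% in that order. mmu-miR-322-5p took 7.39%, 17.6%, 10.4% and 14.9%. Reads of mmu-miR-351-5p outnumbered those of mmu-miR-322-5p, its neighbour in the upstream group, by a factor of 6.51 (6.12 to 6.92) for ES serum and 3.65 (3.50 to 3.80) for ES 2iL, against 2.79 (2.59 to 3.00) for ELA serum and 2.71 (2.43 to 3.03) for ELA 2iL. The balance between these 2 upstream members thus leaned most to mmu-miR-351-5p in ES serum. Levels of different miRNAs are compared here as read numbers of strands 21 to 24 bases long, and any difference in how well each strand was captured was not measured.

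Both hairpins shown above with their 2 strands differed between media in the use of those strands. For Mir322, reads of the 5p strand outnumbered those of the 3p strand by a factor of 2.80 (2.50 to 3.13) for ES serum and 11.3 (9.92 to 12.9) for ES 2iL, against 4.33 (3.74 to 5.04) for ELA serum and 21.3 (13.8 to 34.8) for ELA 2iL. The share of the 5p strand, which holds the miR-15/16 seed, was thus 73.7% (Wilson 95% interval 71.5 to 75.8) in ES serum and 95.5% (93.3 to 97.1) in ELA 2iL. For Mir542 the 3p strand led, by a factor of 38.0 (26.3 to 57.0) for ES serum and 12.6 (9.12 to 17.99) for ES 2iL, against 70.5 (41.0 to 132.8) for ELA serum and 13.5 (8.27 to 23.6) for ELA 2iL. Relative to the other strand, the 5p strand was higher in 2iL in both hairpins, by 2.16 on the log2 scale for Mir322 and 1.98 for Mir542. Among 99 hairpins with enough reads of both strands, 7 including Mir322 had a medium difference at least as large as that of Mir322 in either direction, and 10 as large as that of Mir542. The median size over the 99 was 0.64. Stage differences were smaller, 0.78 for Mir322 and -0.50 for Mir542, against a median size of 0.37. How reads were assigned to strands by the authors beyond the annotation used is not given in the sources used here.

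**Figure D5:**
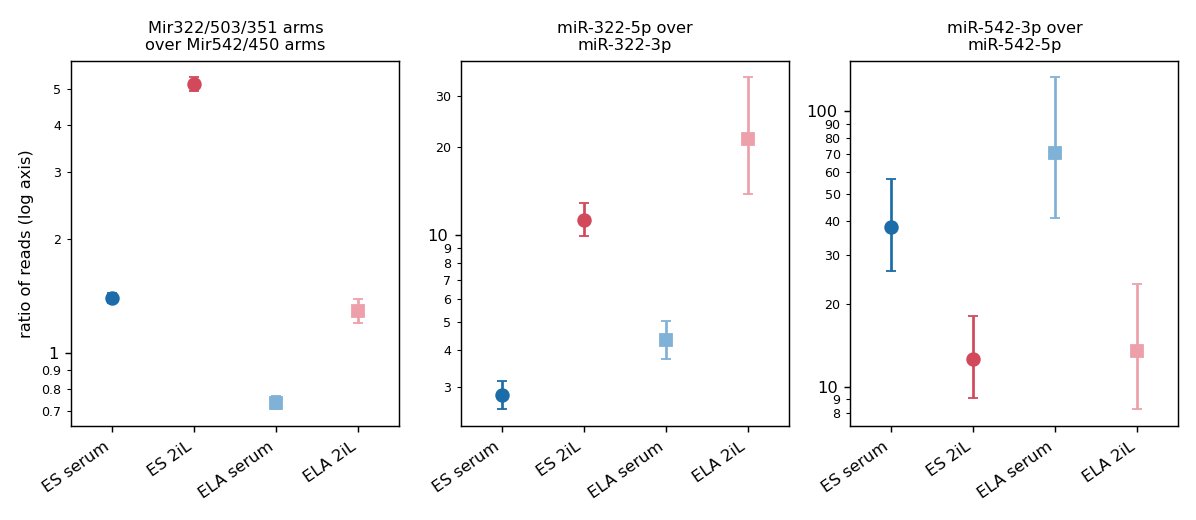
Ratio of reads (log axis) within each library for upstream over downstream members, the 5p over the 3p strand of Mir322 and the 3p over the 5p strand of Mir542, with exact 95% intervals as bars. Both serum libraries lie below both 2iL libraries for Mir322 and above them for Mir542.

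In the other hairpins one strand was nearly all that was found, apart from Mir503. mmu-miR-351-5p made up between 99.6% and 100% of its hairpin's reads, mmu-miR-450b-5p between 99.2% and 99.8%, and mmu-miR-450a-5p between 95.8% and 100% of the reads of the Mir450-1 and Mir450-2 strands. The 5p share of Mir503 was 40.0% (28.1 to 53.2) for ES serum and 50.0% (37.1 to 62.9) for ES 2iL, against 73.8% (62.0 to 83.0) for ELA serum and 50.0% (21.5 to 78.5) for ELA 2iL. The 5 listed strands that are not members (mmu-miR-503-3p, mmu-miR-351-3p, mmu-miR-450a-1-3p, mmu-miR-450a-2-3p and mmu-miR-450b-3p) summed to between 14.3 (ES serum) and 20.7 RPM (ELA serum). Of the 4 of them that were tested, none was called by limma for stage or medium.

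Members that share a seed with miRNAs from elsewhere in the genome were also set against those partners. The seed of mmu-miR-322-5p is shared by 10 mature miRNAs in RefSeq, of which 6 had more than 3 reads in a library. Of all reads with that seed, mmu-miR-322-5p gave 1.98% (Wilson 95% interval 1.87 to 2.09) for ES serum and 3.58% (3.45 to 3.71) for ES 2iL, against 2.26% (2.12 to 2.40) for ELA serum and 3.84% (3.51 to 4.21) for ELA 2iL. Most came from mmu-miR-16-5p, at 6408, 26385, 8684 and 17195 RPM in that order. The 5 detected partners together were 3.81-fold (3.77 to 3.85) higher in 2iL than in serum in ES and 1.98-fold (1.94 to 2.02) higher in ELA. ELA over ES for these partners together was 1.31-fold (1.29 to 1.33) in serum and 0.680-fold (0.667 to 0.694) in 2iL. Those opposite directions are the same as for mmu-miR-322-5p. All 5 were tested and 0 were called by limma, with 4 positive medium differences (median 0.99) and 3 positive stage differences (median 0.15), as means over the pairs.

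For the miR-125 seed the cluster carried a larger part. mmu-miR-351-5p gave 50.0% (49.3 to 50.8) of the reads with that seed for ES serum and 64.5% (63.8 to 65.2) for ES 2iL, against 64.6% (63.1 to 66.0) for ELA serum and 60.7% (58.6 to 62.8) for ELA 2iL. Its detected partners were mmu-miR-125a-5p, at 900, 2056, 328 and 1292 RPM in that order, and mmu-miR-125b-5p, at 63.7, 31.8, 11.8 and 47.7 RPM. The partners together were 2.17-fold (2.09 to 2.24) higher in 2iL than in serum in ES and 3.95-fold (3.61 to 4.31) higher in ELA, and both had negative stage differences as a mean over the media, although mmu-miR-125b-5p was higher in ELA than in ES within 2iL. limma called neither for stage or medium. Every library thus held at least as many reads of mmu-miR-351-5p as of both partners together.

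The 2 other X-linked clusters looked at had other orders of the libraries. The 4 measured strands of the miR-106a to miR-363 cluster summed to 6031 RPM for ES serum and 2040 for ES 2iL, against 12905 for ELA serum and 10246 for ELA 2iL. As means over the 2 pairs of libraries, all 4 had positive stage differences (median 1.98) and negative medium differences (median -0.76), although within ELA mmu-miR-106a-5p and mmu-miR-20b-5p had higher values in 2iL than in serum. Of 9 strands of the Clcn5 cluster 8 were listed, and these summed to 973, 359, 1193 and 298 RPM, with stage and medium medians of 0.24 and 0.03. The strand with the largest medium difference was mmu-miR-501-3p, at 687 RPM for ES serum and 26.7 for ES 2iL, against 777 for ELA serum and 30.6 for ELA 2iL. limma called none of these 12 miRNAs.

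The miRNAs outside the locus with the pattern most like the summed level of the cluster were sought among the 296 expressed ones. Likeness was the Euclidean distance of the centred log2(RPM + 1) values over the 4 libraries. mmu-let-7i-5p came first at a distance of 0.08, with 67.3 RPM for ES serum and 207 for ES 2iL, against 73.6 for ELA serum and 187 for ELA 2iL. mmu-miR-98-5p, mmu-miR-1839-5p, mmu-miR-210-5p and mmu-miR-16-1-3p followed at 0.32, 0.32, 0.32 and 0.34. The cluster's own members lay farther from their sum than these, from 0.83 for mmu-miR-351-5p to 1.50 for mmu-miR-322-3p among the 6 expressed members.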

How the data were processed

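The authors made the libraries with the TruSeq Small RNA kit, trimmed adaptors with Trimmomatic, mapped reads to mm9 with Bowtie, counted them on miRBase 20 miRNAs with featureCounts and deposited RPM values, which sum to 1000000 per library. CASAVA 1.8 is named in the submitters' processing notes. Other versions and the handling of reads with several matches are not given in the sources used here. All values (100%, within 0.01 reads) were whole multiples of 1 read, which gave back the read numbers. ES serum held 8056984 reads and ELA serum 4309257, ES 2iL held 2767016 and ELA 2iL 587363. A floor of 3 reads equals 0.372, 0.696, 1.08 and 5.11 RPM in that order.

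Libraries were grouped by title, source name and column name. The description field exchanges ES 2iL and ELA serum and was not followed.

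log2(RPM + 1), a pseudocount of 1 RPM, was tested with limma 3.58.1 in R 4.3.3 (two-sided, stage and medium as terms, all 4 libraries, Benjamini-Hochberg, threshold 0.05) for 599 miRNAs, the 8 members included, that reached 10 reads in 2 or more libraries. Each fit has 1 residual degree of freedom and, in this main setting, 3.79 prior degrees of freedom. The residual is the departure from additive stage and medium differences. It holds any dependence of the stage difference on the medium together with library noise. The SE and p-values thus measure no spread between libraries of the same group. On the recovered reads, edgeR 4.0.16 made 39 stage calls and 64 medium calls, and DESeq2 1.42.0 was run as well. Other pseudocounts, scalings, filters and member sets were tried. The code was tested on simulated data. Stage and medium differences are means over 2 pairs of libraries. Fold counts took miRNAs averaging at least 5 on log2(RPM + 1) and a difference of at least 1. The comparison of strand use took hairpins with at least 10 reads of each strand in every library. Exact (Clopper-Pearson) and Wilson 95% intervals came from scipy 1.17.1.

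The miRNAs named are the 8 members, the other listed strands, their seed partners, the strands of 2 X-linked clusters, marker lists and the 5 most alike miRNAs. Members and lists were chosen with earlier results of these data known.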

Additional observations from a re-analysis of the deposited data

Results flagged for a closer look

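In RPM, opposite stage differences in the 2 media, each beyond its counting interval, were found for 1 member and for the sum. mmu-miR-322-5p differed between ELA and ES by 0.58 on log2(RPM + 1) in serum and by -0.45 in 2iL. The sum of the 8 members differed by 0.086 (log2 ratio) in serum and by -0.21 in 2iL. The median of the expressed miRNAs was 0.004 in serum and -0.17 in 2iL. Relative to it, mmu-miR-322-5p stood at 0.58 and -0.28, but the sum only at 0.081 and -0.041. Most of the negative value of the sum in 2iL was thus common to the expressed miRNAs. The difference between the media was not tested, since each comparison is 1 library against 1 library.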

How the results depend on the processing

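No paired analysis was possible because each group is 1 library and so has no replicate numbers to pair, and stage and medium were terms of the same fit. For the same reason no library could be left out within a group. No member was called for stage under any setting. For the medium, limma called 0 members with RPM, and 0 with a pseudocount of 0.5 RPM or with DESeq2 size factors. It called 2 with a pseudocount of 5 RPM, 2 with TMM factors, 3 with totals without the 5 most abundant miRNAs and 3 with no filter on low values, while edgeR called 1 and DESeq2 called 2. Medium calls over all miRNAs were 38, 73 and 109 of 599 and 130 of 1202 under these 4 limma settings in turn, 64 with edgeR and 80 with DESeq2. All member calls were among mmu-miR-322-5p, mmu-miR-351-5p and mmu-miR-542-5p, whose limma adjusted p fell to 0.00154, 0.0169 and 0.00137 with no filter. That setting had infinite prior degrees of freedom and an SE of 0.57 for every member. With RPM the SE of these 3 was 0.50, 0.44 and 0.51. The lower p thus came with more prior degrees of freedom and not with a smaller SE. With totals without the 5 most abundant miRNAs the prior degrees of freedom were 3197. The medium difference turned negative for mmu-miR-322-3p with TMM factors (-0.27), DESeq2 size factors (-0.23), edgeR (-0.25), DESeq2 (-0.20) and within ELA only (-0.51). It turned negative for mmu-miR-450a-5p with TMM factors (-0.28), DESeq2 size factors (-0.24), edgeR (-0.28), DESeq2 (-0.24) and within ES only (-0.028), and for mmu-miR-503-5p within ELA only (-0.64). The stage difference turned for mmu-miR-322-5p (-0.45) and mmu-miR-503-5p (-0.46) within 2iL only and for mmu-miR-542-5p within serum only (-0.20). The summed stage difference, -0.06 as a log2 ratio, became 0.12 with TMM factors, 0.15 with DESeq2 size factors, 0.027 with totals without the 5 most abundant miRNAs, 0.086 within serum only, -0.21 within 2iL only and 0.53 without mmu-miR-351-5p. The summed medium difference, 1.41, became 0.99, 1.03 and 1.29 under those 3 scalings, 1.55 within ES only, 1.26 within ELA only, 1.47 without mmu-miR-450a-5p and 1.01 without mmu-miR-351-5p. With the other listed strands added, neither moved beyond its counting interval. The upstream share, tried after seeing the data, became 62.4% and 85.6% in ES (serum, then 2iL) and 46.0% and 58.7% in ELA without mmu-miR-450a-5p. Without mmu-miR-351-5p it was 19.6%, 54.3%, 18.8% and 26.5%, and without mmu-miR-450b-5p 80.9%, 93.8%, 70.4% and 82.1%. The causes were not tested. In ELA 2iL, mmu-miR-322-3p (21 reads) and mmu-miR-503-5p (4 reads) did not differ from the next library in level beyond counting error.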
